A study of Mus musculus with 6 samples.

Results

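The immediate early genes examined here were Fos, Fosb, Jun, Junb, Egr1, Ier2, Atf3, Dusp1, Zfp36 and Btg2, taken by symbol from a table of 24470 mouse genes. All 10 were found and all 10 passed the filter on low counts, which 15577 genes passed. RNA was sequenced from E12.5 testes of 3 control and 3 Ppp1r3c cKO samples, each a pool of 2 gonad pairs. Control embryos had the genotype Ppp1r3c f/f (both alleles floxed, no Cre), and conditional knockout (cKO) embryos were Sf1-Cre Ppp1r3c f/f, so that the floxed alleles were shared and only the cKO carried the Cre transgene. Sf1 is Nr5a1, and the study uses this Cre for its activity in Sertoli cell progenitors. The samples were whole testes, which also hold germ, interstitial, endothelial and blood cells, and in such bulk samples a lower number of cells of a type and less RNA per cell cannot be told apart.

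Immediate early genes are transcribed within minutes of a growth signal or a stress, without prior protein synthesis. ERK signalling acts on the serum response factor SRF and its ETS-family partners, and calcium and cAMP act through CREB, and both routes end at promoters that are already poised. The FOS and JUN families make the subunits of the dimeric factor AP-1, EGR1 is a zinc-finger factor of the same fast wave, and DUSP1, ZFP36 and BTG2 act to end the response.

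The 250 bases before the annotated start are printed for 5 members as a part of their promoter sequence. Coordinates are of GRCm38.p6 (RefSeq), the assembly also called mm10. Fosb, Junb, Atf3 and Fos are shown because they are AP-1 subunits or partners whose levels varied between samples below, and Dusp1 because its level did not follow theirs. The promoters of Egr1 and Ier2 were not searched. Capitals mark TGACG, the core of the CREB and ATF site, on either strand.
Fosb (chr7:19310046-19310295, minus strand): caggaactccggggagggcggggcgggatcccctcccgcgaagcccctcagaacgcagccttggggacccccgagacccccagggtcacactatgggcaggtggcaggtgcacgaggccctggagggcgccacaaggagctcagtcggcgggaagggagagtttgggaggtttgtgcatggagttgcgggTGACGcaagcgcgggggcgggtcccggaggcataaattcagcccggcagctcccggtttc
Junb (chr8:84978749-84978998, minus strand): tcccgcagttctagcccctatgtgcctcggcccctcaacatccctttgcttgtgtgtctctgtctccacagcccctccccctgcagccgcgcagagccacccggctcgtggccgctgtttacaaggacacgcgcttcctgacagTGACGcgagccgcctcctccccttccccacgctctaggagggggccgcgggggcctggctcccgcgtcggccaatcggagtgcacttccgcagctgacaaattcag
Atf3 (chr1:191183334-191183583, minus strand): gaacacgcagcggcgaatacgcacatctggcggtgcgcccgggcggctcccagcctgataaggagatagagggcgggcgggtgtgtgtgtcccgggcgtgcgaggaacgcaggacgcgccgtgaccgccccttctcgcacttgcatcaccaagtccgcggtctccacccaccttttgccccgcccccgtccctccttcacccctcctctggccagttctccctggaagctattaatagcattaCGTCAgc
Fos (chr12:85473640-85473889, plus strand): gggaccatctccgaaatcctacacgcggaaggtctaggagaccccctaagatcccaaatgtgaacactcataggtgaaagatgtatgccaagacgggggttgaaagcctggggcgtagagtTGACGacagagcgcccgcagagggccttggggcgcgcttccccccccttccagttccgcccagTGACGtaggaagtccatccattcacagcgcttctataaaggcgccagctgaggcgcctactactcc
Dusp1 (chr17:26508473-26508722, minus strand): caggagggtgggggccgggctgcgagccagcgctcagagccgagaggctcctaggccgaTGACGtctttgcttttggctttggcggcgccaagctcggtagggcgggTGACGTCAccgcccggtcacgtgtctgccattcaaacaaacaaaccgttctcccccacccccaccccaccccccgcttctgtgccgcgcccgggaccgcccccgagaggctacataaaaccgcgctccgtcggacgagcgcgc
The core TGACG was found on either strand in 6 of the 8 member promoters searched (Atf3, Btg2, Dusp1, Fos, Fosb and Junb, not Jun or Zfp36), and in 17.8% of all 32851 promoter windows of this length. The full palindrome TGACGTCA, which holds the core on both strands, was found in Btg2 and Dusp1 and in 1.55% of all windows. The CArG box, the letters bound by SRF, was found only in Zfp36 among the 8, against 1.47% of all windows. The AP-1 letters TGANTCA were in 0 of the 8 and in 6.75% of all windows, and the EGR letters GCGTGGGCG in 0 of the 8 and in 0.536% of all. TATAAA was found in Fos, with 12.4% of all windows holding it. Both strands were searched for every motif. Thus the core stood before members whose levels differed between samples (Fosb, Junb, Atf3) and before members whose levels did not (Btg2). A match is a description of letters and not of a bound factor. Only exact letters within these 250 bases were searched. A motif not found here may lie further from the start or differ by a letter.

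The libraries were examined before the genes. Totals ran from 16139487 counts (control replicate 1) to 44145158. The targeted gene Ppp1r3c was at 22.1 to 24.4 CPM (counts scaled to the size of the library) in control and 4.71 to 5.96 CPM in cKO samples (log2 difference -2.11, SE 0.111, FDR 0.000126 by edgeR), as the labels imply. In cKO replicate 3, Xist, the RNA of the inactive X chromosome in XX cells, was at 379 CPM against 1.0 CPM or less elsewhere, and 4 Y-linked genes summed to 220 CPM against 258 to 277 CPM. The 6 pre-granulosa markers, genes of the ovarian lineage, summed to 268 CPM in it and to 82.8 to 100 CPM elsewhere. This library goes against its label as testis alone, and the fold changes that moved most without it are given both ways. The Sertoli markers summed to between 1600 CPM (cKO replicate 3) and 2160 CPM, with 0 of 10 markers at 0, so Sertoli transcripts were present in every library.

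The members differed widely in abundance. Levels between genes were compared as CPM per kb of exon in the control samples. Ier2, a small nuclear protein induced by serum, was the highest at 23.4 ± 2.52 (SD, n = 3), and Jun followed at 20.7 ± 1.13 CPM per kb. Their control values overlapped. Btg2, an antiproliferative protein that recruits the mRNA deadenylase, lay at 13.7 ± 0.910 CPM per kb, below both. Egr1 (6.74 ± 0.615), the MAP kinase phosphatase gene Dusp1 (6.74 ± 0.742) and Zfp36 (5.85 ± 0.240 CPM per kb), which encodes a protein that binds AU-rich mRNAs and speeds their decay, formed a middle tier whose neighbours overlapped. Junb was at 3.08 ± 0.204 CPM per kb, apart from its neighbours. Atf3 (0.730 ± 0.217) and Fos (0.630 ± 0.0361 CPM per kb) overlapped, and Fosb was the lowest at 0.0788 ± 0.00683 CPM per kb. The AP-1 subunits therefore ranged from Jun, among the most abundant members, to Fos and Fosb at the bottom of the list.

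To ask whether loss of Ppp1r3c altered these genes, each was compared between cKO and control in a fit across all genes (edgeR quasi-likelihood test, Benjamini-Hochberg adjustment, called at an FDR under 0.05). None of the 10 was called (0 of 10), where 0.0385% of all genes were. At an unadjusted p under 0.05 there was 1 member, Junb, against 11.4% of all genes. DESeq2 called 0 of the 9 members to which it gave an adjusted p, with 0.779% of all genes called, and had the same 1 member at an unadjusted p under 0.05 (8.25% of all genes). Without cKO replicate 1, 0 members had an edgeR unadjusted p under 0.05, where 13.8% of all genes did. Without cKO replicate 2 there were 3 (Fosb, Junb and Egr1, with 8.8% of all genes), and without cKO replicate 3 there were 2 (Junb and Egr1, with 7.83% of all genes). Log2 fold changes were above 0 for 9 members and below 0 for Dusp1, with a median of 0.14, beside a median of -0.0034 over all genes. The median was 0.049 without cKO replicate 1, with 7 members above 0, and 0.29 without cKO replicate 3. The level of the members in cKO testes therefore rested on which samples entered, and each is described per sample below. The exact permutation test (two-sided) of 3 against 3 cannot go below a p of 0.1.

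**Figure D1:**
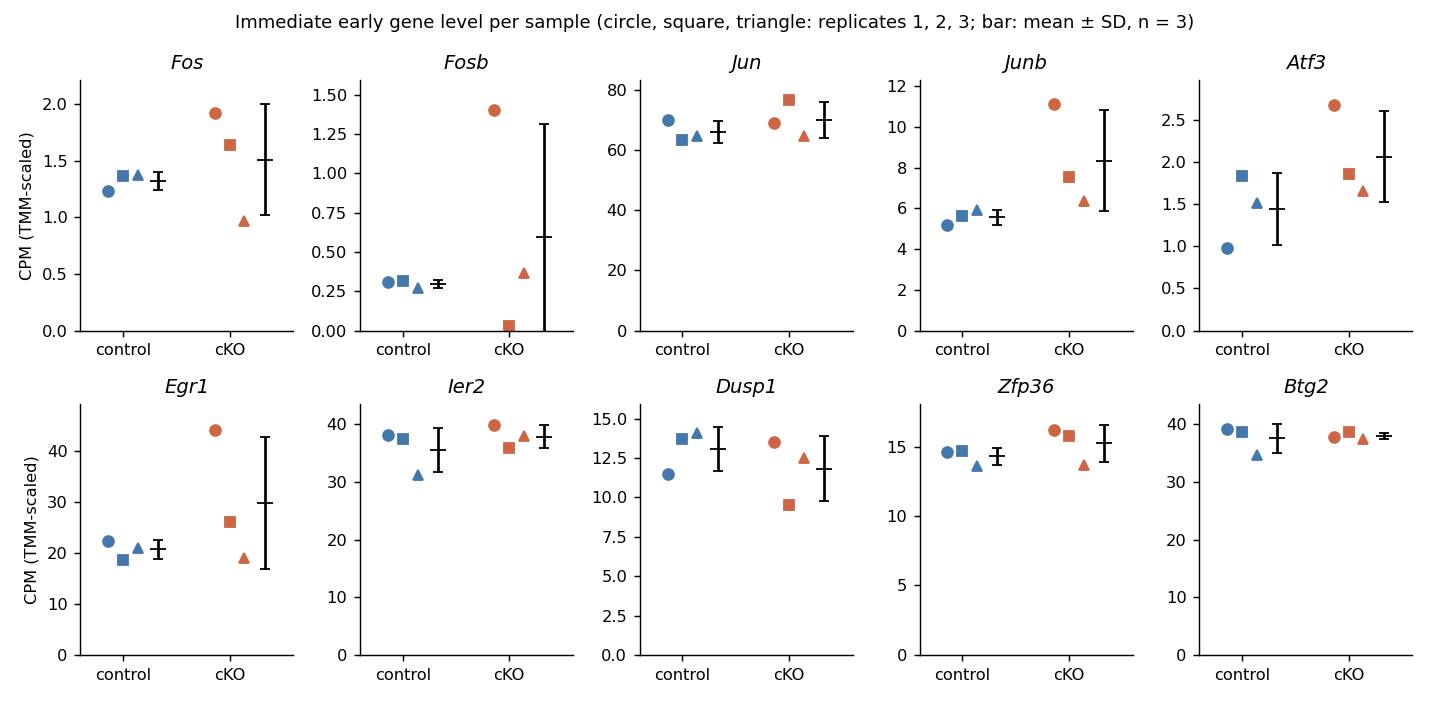
TMM-scaled CPM (linear axis from 0) of the 10 immediate early genes in each of the 6 samples, with the mean ± SD (n = 3) beside each group; the lower end of the cKO bar of Fosb is cut at 0. cKO replicate 1 (orange circle) is the highest sample for Fos, Fosb, Junb, Atf3, Egr1, Ier2 and Zfp36, while Jun, Dusp1 and Btg2 peak in other samples.

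Of the AP-1 subunits, Junb (chromosome 8, 84976909 to 84978748, minus strand), a JUN-family member known to temper JUN activity, was at 5.17, 5.61 and 5.90 CPM in control replicates 1 to 3. In cKO replicates 1 to 3 it was at 11.1, 7.54 and 6.38 CPM. Every cKO sample thus lay above every control sample, and Junb was the only member whose groups did not overlap (1 of 10 higher and 0 of 10 lower, where 8.42% of all genes were higher and 7.17% lower in this way). Its log2 fold change was 0.58 (SE 0.201), with an unadjusted p of 0.0172 and an FDR of 0.380 by edgeR, and its exact permutation test gave 0.1, the lowest p the design allows. Without cKO replicate 1 the log2 fold change was 0.32 (edgeR unadjusted p 0.0803), and without cKO replicate 3 it was 0.74 (edgeR unadjusted p 0.00267, FDR 0.633).

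Jun (chromosome 4, 95049036 to 95052222, minus strand), the partner of FOS proteins in AP-1, was at 70.0, 63.2 and 64.6 CPM in control and 69.1, 76.5 and 64.7 CPM in cKO samples. The groups overlapped, and the highest sample was cKO replicate 2. The log2 fold change was 0.09 (SE 0.0769, FDR by edgeR 0.671). It thus did not share the high value of Junb in cKO replicate 1.

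Fos (chromosome 12, 85473901 to 85477269, plus strand), the archetype of the class, was at 1.23, 1.36 and 1.37 CPM in control and 1.92, 1.64 and 0.968 CPM in cKO samples. The cKO samples included both the highest and the lowest value, and they enclosed all 3 control values. The log2 fold change was 0.19 (SE 0.282, FDR by edgeR 0.830), -0.021 when cKO replicate 1 was left out and 0.42 when cKO replicate 3 was. The counts behind these values were low, from 20 to 77 per library.

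Fosb (chromosome 7, 19302696 to 19310045, minus strand), a FOS-family subunit, was the rarest member, with 5, 14 and 11 counts in control and 56, 1 and 12 counts in cKO samples. In control samples it was at 0.308, 0.317 and 0.268 CPM. cKO replicate 1 was at 1.40 CPM (95% exact Poisson interval 1.05 to 1.81), 4.69 times the control mean. cKO replicate 2 was at 0.0278 CPM (0.000704 to 0.155) and cKO replicate 3 at 0.363 CPM (0.188 to 0.634), where the intervals cover counting error only. The 3 cKO samples thus differed from each other by more than counting error, whereas the control samples lay close together. The log2 fold change was 1.03 (SE 0.864, FDR by edgeR 0.669), with the opposite sign without cKO replicate 1 (-0.63), and 1.28 without cKO replicate 3.

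Atf3 (chromosome 1, 191170296 to 191183333, minus strand), a stress-induced factor of the ATF and CREB family that also pairs with JUN, was at 0.985, 1.83 and 1.51 CPM in control and 2.67, 1.86 and 1.66 CPM in cKO samples. Control replicate 1 was low and cKO replicate 1 high, and the other 4 samples lay together between them. The log2 fold change was 0.47 (SE 0.281, FDR by edgeR 0.543), 0.24 when cKO replicate 1 was left out and 0.60 when cKO replicate 3 was. Control replicate 1, the shallowest library, held 16 counts of Atf3.

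Egr1 (chromosome 18, 34861207 to 34864956, plus strand), the zinc-finger factor, was at 22.4, 18.7 and 21.0 CPM in control and 44.2, 26.1 and 19.1 CPM in cKO samples. cKO replicate 1 stood at 2.13 times the control mean, cKO replicate 2 a little above the controls, and cKO replicate 3 among them. The log2 fold change was 0.53 (SE 0.251), with an edgeR unadjusted p of 0.0608 and an FDR of 0.454. Without cKO replicate 1 it was 0.13 (edgeR unadjusted p 0.359). Without cKO replicate 3 it was 0.77 (edgeR unadjusted p 0.00249, FDR 0.633; DESeq2 FDR 0.0571), so that the outcome depended on which of these libraries entered.

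Ier2 (chromosome 8, 84661331 to 84662852, minus strand) was at 38.1, 37.4 and 31.2 CPM in control and 39.8, 35.8 and 37.9 CPM in cKO samples. Its groups overlapped, at a log2 fold change of 0.09 (SE 0.0878, FDR by edgeR 0.706). cKO replicate 1 was its highest sample, but by little.

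Among the genes that end the response, Dusp1 (chromosome 17, 26505591 to 26508472, minus strand) was at 11.5, 13.7 and 14.1 CPM in control and 13.5, 9.51 and 12.46 CPM in cKO samples. It was the only member with a negative log2 fold change, -0.16 (SE 0.144, edgeR FDR 0.702), which was -0.021 without cKO replicate 2, its lowest sample, -0.26 without cKO replicate 1 and -0.19 without cKO replicate 3. Zfp36 (chromosome 7, 28376784 to 28379228, minus strand) was at 14.6, 14.7 and 13.6 CPM in control and 16.2, 15.8 and 13.7 CPM in cKO samples, at a log2 fold change of 0.09 (SE 0.0966, FDR by edgeR 0.742). Btg2 (chromosome 1, 134074865 to 134079155, minus strand) was at 39.2, 38.7 and 34.7 CPM in control and 37.7, 38.6 and 37.5 CPM in cKO samples, at a log2 fold change of 0.02 (SE 0.0683, FDR by edgeR 0.943). All 3 genes overlapped between groups, and none of the 3 stood out in cKO replicate 1.

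**Figure D2:**
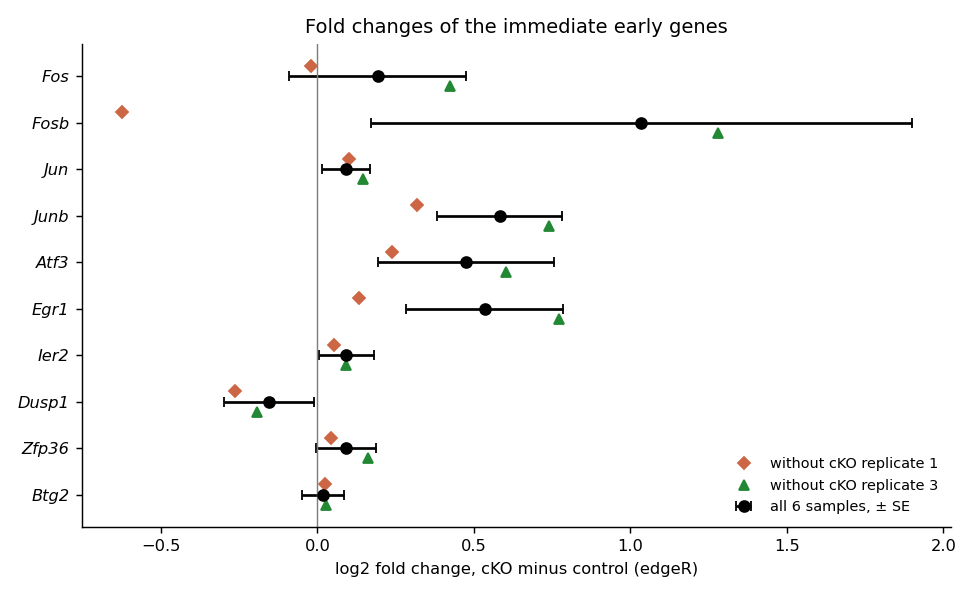
Log2 fold change of cKO against control (edgeR) for the 10 members, with all 6 samples (black circles, bars are SE) and without cKO replicate 1 (orange diamonds) or cKO replicate 3 (green triangles). Without cKO replicate 1 Fosb moves from 1.03 to -0.63 and Egr1 from 0.53 to 0.13, whereas Jun, Ier2, Zfp36 and Btg2 stay near their first values.

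The spread between samples was then compared among members. The within-group SD of log2 CPM was 1.46 for Fosb, 0.442 for Egr1, 0.396 for Atf3, 0.355 for Fos and 0.297 for Junb, against a median of 0.120 over all genes tested. Fosb lay at the 99.8th percentile of genes tested and Egr1 at the 90.5th. Jun (0.102), Zfp36 (0.10), Ier2 (0.126) and Btg2 (0.0709) were near or below that median, and Dusp1 was at 0.220. Fosb, Fos and Atf3 had low counts, but Egr1 held between 364 and 1771 counts in a library, and its biological coefficient of variation was 0.213 where the trend of genes of like abundance was 0.0926. For Egr1 the SD was 0.133 in control and 0.611 in cKO samples, for Junb 0.0955 and 0.408, and for Fos 0.0807 and 0.496. Atf3 varied in both groups, with 0.440 in control and 0.346 in cKO samples. This coefficient was also above its trend for Fosb (0.67, trend 0.255) and Junb (0.182, trend 0.161). For Atf3 it was 0.225 with a trend of 0.225, and for Fos 0.22 with a trend of 0.232. In this measure Fos and Atf3 thus did not lie above genes of like abundance. By within-group SD alone, the members fell into a variable set (Fosb, Egr1, Atf3, Fos and Junb) and a steady set (Jun, Ier2, Zfp36 and Btg2). Dusp1 lay between them. This division was made after the values were seen.

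The variable set was high in cKO replicate 1. These high values are part of the within-group SD by which the set was drawn, so this is a description and not a separate result. This sample held the highest value of 7 of the 10 members, while 11.3% of all genes were highest there. In it, 5 members (Fos, Fosb, Junb, Egr1 and Atf3) were more than 0.5 log2 units above the mean of the other 5 samples, against 3.77% of all genes. In the other libraries 0 members were that far above. The mean over members of log2 CPM minus the control mean was 0.60 in cKO replicate 1, -0.06 in cKO replicate 2 and 0.01 in cKO replicate 3, and lay between -0.04 and 0.05 in the control samples. The value of cKO replicate 2 held Fosb at -2.06, from 1 count. Over the 9 members other than Fosb the mean was 0.44 in cKO replicate 1, 0.16 in cKO replicate 2 and -0.02 in cKO replicate 3, against -0.05 to 0.05 in the control samples. In cKO replicate 2, 8 of these 9 lay above the control mean, where 5, 7 and 5 did in control replicates 1 to 3. Among the 8 were Junb (0.44), Atf3 (0.40) and Egr1 (0.34), but also Ier2 (0.01) and Btg2 (0.04), while Dusp1 was at -0.45. In the mean over the 9 members, cKO replicate 2 lay between cKO replicate 1 and the controls, and cKO replicate 3 among the controls.

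The summed markers of other cell types in the testis were set beside the values of this sample. The 8 endothelial markers summed to 642 CPM in cKO replicate 1, to 655 to 745 CPM in control and to 678 and 750 CPM in the other cKO samples, and 5 of the 8 had their lowest value in cKO replicate 1 (9.37% of all genes did). The 8 macrophage markers summed to 45.8 CPM there and to 44 to 49.4 CPM elsewhere. The 9 erythroid markers summed to 2390 CPM there and to 2720 to 3390 CPM elsewhere. The sums of these 3 lists in that sample were thus within or below the range of the others. The mesonephros markers summed to 124 CPM there, against 108 to 120 CPM in control and 115 and 173 CPM in the other cKO samples, and their mean was 0.31 log2 units above the control mean. The pre-granulosa markers had the same mean difference of 0.31 in cKO replicate 1, beside 0.30 in cKO replicate 2 and 2.41 in cKO replicate 3. The part of these 2 lists in the levels of the members was not tested. The 10 germ cell markers (9 tested) summed to 506, 813 and 840 CPM in control and 524, 237 and 394 CPM in cKO samples. All 9 tested were below 0, with a median log2 fold change of -0.88. At an edgeR unadjusted p under 0.05, 7 were lower and 0 higher (all genes: 5.8% lower and 5.56% higher). Of these markers edgeR called 0 and DESeq2 2, and their part in the levels of the members was not tested.

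Beyond the 10 members, 7 lists of genes of this response or of other stress responses were examined, and edgeR called 0 genes in each. The list of family relatives had 20 tested genes of 22, of which 15 were above 0 and 5 below, with a median log2 fold change of 0.070 (0.057 without cKO replicate 3). At an unadjusted p under 0.05, 3 were higher and 0 lower (all genes: 5.56% higher and 5.8% lower). These were Zfp36l1, the relative of Zfp36, at a log2 fold change of 0.28 (SE 0.0641, FDR by edgeR 0.377), Dusp2, a MAP kinase phosphatase gene, with 0.50 (SE 0.188, edgeR FDR 0.389) and Dusp5, an ERK phosphatase, with 0.41 (SE 0.165, edgeR FDR 0.410). Zfp36l1 was at 342, 326 and 316 CPM in control and 372, 391 and 430 CPM in cKO samples, so its groups did not overlap and its highest sample was cKO replicate 3. DESeq2 called it (FDR 0.0187), but not without control replicate 2 (0.173), control replicate 3 (0.0516), cKO replicate 2 (0.0628) or cKO replicate 3 (0.293). The run without control replicate 3 gave an adjusted p to only 1604 genes.

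None of the other named relatives of the members was called. Jund (log2 fold change 0.08, SE 0.0833), Fosl2 (0.08, SE 0.0894), Zfp36l2 (0.11, SE 0.0542), Btg1 (0.05, SE 0.0613) and Dusp6 (0.02, SE 0.0620), which encodes an ERK phosphatase, had an edgeR FDR of 0.475 or above, and of these 5 only Zfp36l2 had groups that did not overlap. Without cKO replicate 3 Fosl2 was at 0.15 and Dusp6 at 0.044. Egr2 (-0.19, SE 0.581) and Egr3 (0.50, SE 0.484) were at 1.05 CPM or less in every sample (0.167 and 0.807 without cKO replicate 3), and Egr4 and Fosl1 did not pass the filter on low counts. Fosl1, the gene of the FOS-family subunit FRA1 and named here after its values were seen, had 1, 18 and 3 counts in control and 163, 5 and 2 counts in cKO samples. It therefore showed the same high value in cKO replicate 1 (4.06 CPM) as Fosb, and was at 0.407 CPM or less elsewhere.

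The delayed early and secreted targets, many of them genes that AP-1 or SRF act on, had 13 of 19 tested genes above 0 and a median log2 fold change of 0.075 (0.031 when cKO replicate 1 was left out and 0.11 when cKO replicate 3 was). The 3 genes of lowest p were Trib1 (0.19, SE 0.0648, edgeR FDR 0.377), Vegfa (0.15, SE 0.0655, edgeR FDR 0.434) and Gadd45g (0.34, SE 0.150, edgeR FDR 0.439), and they were also the 3 at an unadjusted p under 0.05, all higher. They were close together in the 3 cKO samples, but control replicate 3 was low for Gadd45g and Vegfa. Gadd45g was at 54.9, 50.8 and 33.9 CPM in control and 55.7, 58.3 and 61.7 CPM in cKO samples. Vegfa was at 186, 180 and 158 CPM in control and 197, 188 and 197 CPM in cKO samples. A different set stood out in cKO replicate 1, chosen after the values were seen. Ccn1, a matricellular protein gene, was at 19.7, 25.8 and 23.1 CPM in control and 80.1, 24.3 and 23.1 CPM in cKO samples. It was high in cKO replicate 1 alone, at 3.45 times the mean of the other 5 samples. Ccn2 (67.2 CPM there), Plaur (6.43 CPM), Hbegf (7.43 CPM) and Thbs1 (157 CPM) were likewise highest in cKO replicate 1, at between 1.82 and 2.20 times the mean of the other 5 samples.

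**Figure D3:**
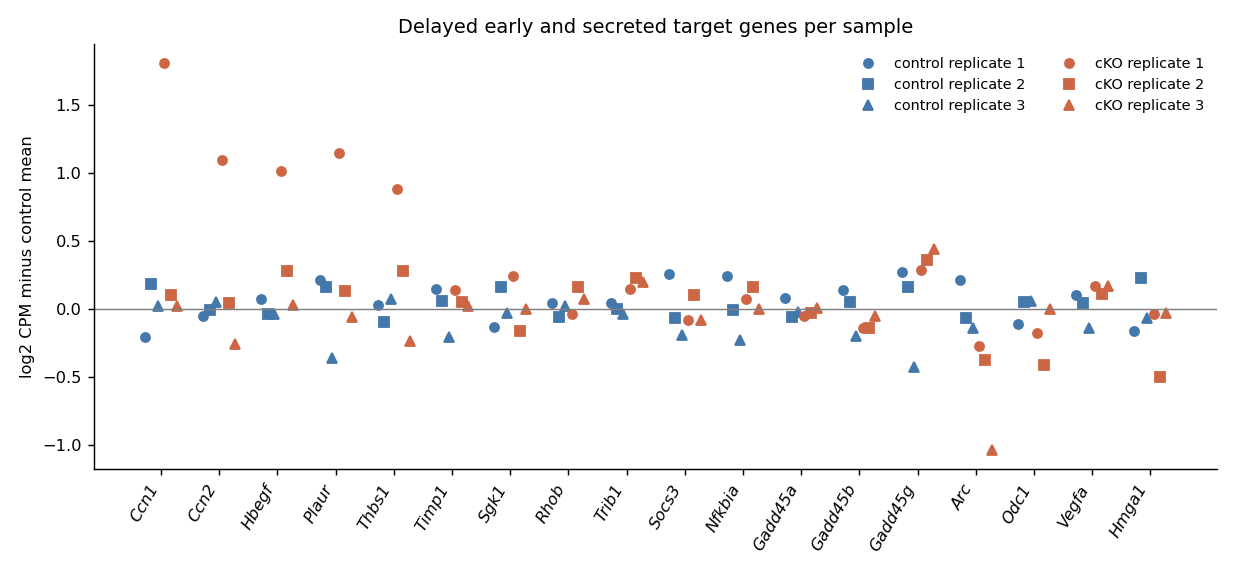
Log2 CPM minus the control mean for the delayed early and secreted target genes reported here in each of the 6 samples (blue, control; orange, cKO; circles, squares and triangles are replicates 1, 2 and 3). Ccn1 (1.81), Plaur (1.15), Ccn2 (1.10), Hbegf (1.02) and Thbs1 (0.88) are highest in cKO replicate 1. Hbegf and Thbs1 are also above every control in cKO replicate 2, at 0.28 each.

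The other inducible transcription factors had 11 of 16 genes above 0, with a median log2 fold change of 0.11 (0.029 when cKO replicate 1 was left out and 0.16 when cKO replicate 3 was). The genes of lowest p were Bhlhe40 (0.35, SE 0.108, edgeR FDR 0.377), Cebpb (0.38, SE 0.118, edgeR FDR 0.377) and Myc (0.26, SE 0.10, edgeR FDR 0.40), which were the 3 at an unadjusted p under 0.05. In each of them every cKO sample lay above every control sample, as in 5 of the 16 genes of the list (8.42% of all genes). Thus cKO replicates 2 and 3 were both above the controls for these genes, as they were for Junb. For Egr1 and Fos, cKO replicate 2 lay above the controls and cKO replicate 3 did not. For Fosb, cKO replicate 3 lay above the controls and cKO replicate 2 did not.

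The upstream regulators, SRF, its partners, CREB, its coactivators and the ERK pathway kinases, had 11 of 19 genes above 0. Their median log2 fold change was 0.049 (0.033 without cKO replicate 3). At an edgeR unadjusted p under 0.05, 3 were higher and 0 lower (all genes: 5.56% higher and 5.8% lower). Crtc3 (0.21, SE 0.0685, edgeR FDR 0.377) and Crtc1 (0.18, SE 0.0627, edgeR FDR 0.382), coactivators of CREB, and Rps6ka3 (0.25, SE 0.0905, edgeR FDR 0.386), a kinase downstream of ERK, had the lowest p. The level of Rps6ka3 in cKO replicate 3 was 256 CPM, against 180 to 208 CPM elsewhere, and without that library its log2 fold change was 0.123 (edgeR unadjusted p 0.0849). In cKO replicate 1 the list mean was 0.03 log2 units from the control mean, and 0 of its genes were highest in that sample. The transcripts of these regulators thus did not stand out in cKO replicate 1. The activity of their proteins was not tested.

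Heat shock genes, the chaperones induced by protein damage, were examined in the same way. Of 12 genes, 3 were above 0 and 9 below, with a median log2 fold change of -0.092 (-0.091 without cKO replicate 3). At an unadjusted p under 0.05, 1 was higher and 3 were lower. The genes of lowest p were Bag3, a co-chaperone, with 0.30 (SE 0.0889, edgeR FDR 0.377; 0.201 without cKO replicate 3), and the chaperone genes Hspe1 (-0.23, SE 0.0798, edgeR FDR 0.380) and Dnajb1 (-0.15, SE 0.0547, edgeR FDR 0.382). The list mean was -0.09, -0.10 and -0.08 log2 units in cKO replicates 1 to 3, so cKO replicate 1 did not differ from the other cKO samples here. Hspa1a, a strongly inducible chaperone named after its values were seen, had 2.74 CPM in cKO replicate 1, and the remaining samples spanned 2.54 to 4.8 CPM.

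**Figure D4:**
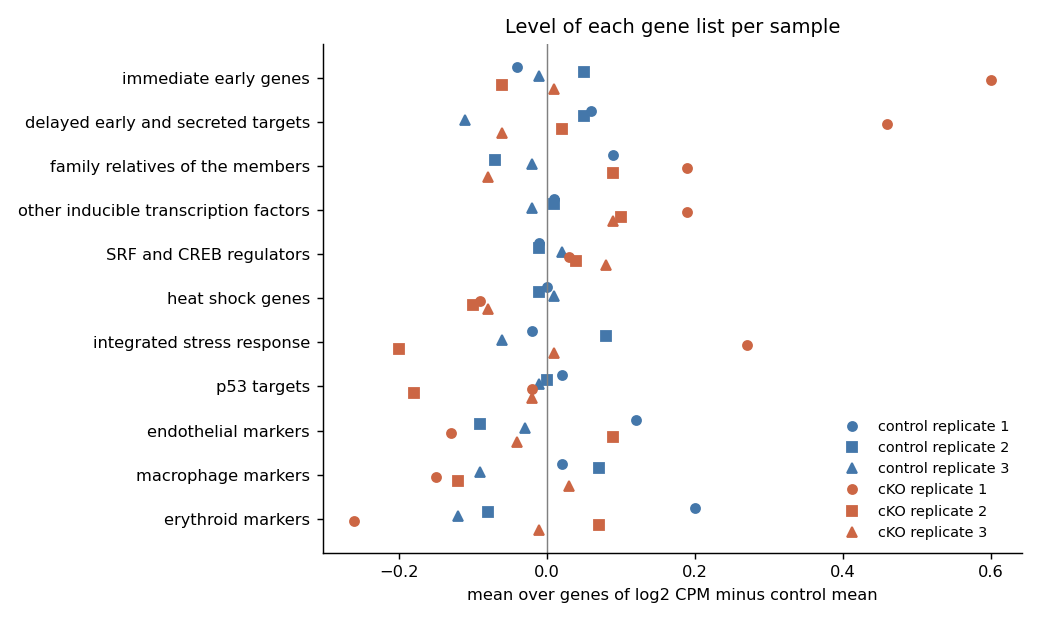
Mean over the tested genes of each list of log2 CPM minus the control mean, per sample (blue, control; orange, cKO; circles, squares and triangles are replicates 1, 2 and 3). cKO replicate 1 lies at 0.60 for the immediate early genes and 0.46 for the delayed early targets, and at -0.09 for the heat shock genes.

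The genes most like the members over the 6 samples were sought by the root mean square difference between centred log2 CPM profiles, among 13784 other genes of at least 1 CPM. The mean profile of the members was -0.13, -0.04 and -0.10 log2 units in control replicates 1 to 3 and 0.51, -0.15 and -0.08 in cKO replicates 1 to 3. This profile held Fosb, which had 1 count in cKO replicate 2. Over the 9 members other than Fosb, that sample lay 0.16 above the control mean, so its low point rested on Fosb. The 5 nearest genes were Cwc22 (difference 0.0626), a splicing factor, Prss23 (0.0656), a secreted protease, Tubb6 (0.0694), a beta-tubulin, Myof (0.0812), which encodes the membrane-repair protein myoferlin, and Steap2 (0.0812), a metalloreductase. All 5 were highest in cKO replicate 1, for example Tubb6 with 50.5 CPM there and 32.4 to 38.4 CPM elsewhere. Single members lay between 0.192 (Zfp36) and 1.01 (Fosb) from their own mean profile, so that the mean describes none of them closely. All 6 points are the same libraries for every gene, and the likeness is a description.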

How the data were processed

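Strand-specific mRNA libraries of 6 samples were sequenced as read pairs. The authors mapped them to mm10 with STAR (version 2.5 in the submitters' processing notes) and then used featureCounts (Subread 1.5.0-p1) with RefSeq gene models. The deposited values are raw counts, without normalization, and every per-sample column was used. Groups and replicate numbers came from the sample titles, and nothing states whether pools came from separate litters, so p-values measure the spread between these samples.

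CPM used TMM-scaled library sizes, and log2 CPM a prior count of 2. The test was edgeR 4.0.16 in R 4.3.3 (filterByExpr with a minimum count of 10, TMM, legacy quasi-likelihood F-test, no covariates), with Benjamini-Hochberg adjustment over 15577 genes. The SE was derived from the F statistic. Exon lengths were unions of GENCODE M21 exons within the deposited coordinates. In data simulated for cKO against control on 15445 genes, edgeR recovered 78.8% of genes changed by 1 log2 unit, 97% of those changed by 2 log2 units, and 6.91% of its calls were false, while DESeq2 recovered 80% and 96% with 14.1% of its calls false.

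Alternatives were DESeq2 1.42.0, RLE size factors, no filter, a filter that kept genes with 1 CPM or more in 3 or more samples, a replicate block, the newer quasi-likelihood method and leaving out each sample. DESeq2 without each sample was added after seeing the data. The members and gene lists were chosen with earlier results of these data known. All 196 list genes were found by symbol, and 1 of the delayed early targets is counted in its list but not reported here by itself. Named genes were the members, their closest relatives, the 3 genes of lowest p in each list, called genes, the 5 nearest profiles, Ppp1r3c and Xist, and any other is marked where named.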

Additional observations from a re-analysis of the deposited data

How the results depend on the processing

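No member passed an FDR of 0.05 in any alternative that gave the members an adjusted p. DESeq2 without control replicate 3 gave none of them one. The number of called genes over the whole table was 6. It was 111 with DESeq2 and 3 with the replicate number as a block, and ranged from 2 (without control replicate 1 or control replicate 3) to 8 (without cKO replicate 1) when edgeR was run without single samples, with 3 without cKO replicate 3. DESeq2 without control replicates 1, 2 and 3 called 313, 52 and 48 genes, and without cKO replicates 1, 2 and 3 it called 300, 82 and 14. The run without control replicate 3 gave an adjusted p to only 1604 genes, where DESeq2 with all samples gave one to 14243. The cause of these differences between runs was not tested. Same-numbered samples deviated from their group means with correlations of -0.203, -0.266 and -0.13, so they were not alike in these deviations. With 3 samples in a group this cannot decide whether a shared number marks a shared litter or batch. The block left the count of members called at 0.

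The median log2 fold change of the members stayed above 0 in every alternative. Without single samples it ranged from 0.049 to 0.29 by edgeR, and the extremes by DESeq2 were 0.055 and 0.30, each without cKO replicate 1 and cKO replicate 3. Under the stricter filter, which removed 1 member, it was 0.094. Signs of single members changed without 1 sample. By edgeR, Fos ranged from -0.021 to 0.42, Fosb from -0.63 to 1.58, Ier2 from -0.0038 to 0.14 and Btg2 from -0.044 to 0.048. By DESeq2, Fos was at -0.013 and Fosb at -0.61 without cKO replicate 1, and Btg2 at -0.034 without control replicate 3.

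Depth limits Fosb most, with 1 to 56 counts per library. Fos held 20 to 77 counts and Atf3 16 to 107.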

Other observations

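Btg2 and Atf3 are also known as targets of p53 and of the stress kinases, and 2 of the 7 lists were examined for that reason. Of the 10 p53 targets tested, 5 were above 0 and 5 below, with a median log2 fold change of -0.011 (-0.092 when cKO replicate 3 was left out, -0.032 when cKO replicate 1 was), and 0 were called by edgeR. At an unadjusted p under 0.05, 0 were higher and 2 lower. Bax, the pro-apoptotic gene of the BCL2 family, was at 52.4, 58.5 and 54.7 CPM in control and 43.5, 42.3 and 45.1 CPM in cKO samples. Its groups did not overlap, and its log2 fold change was -0.34 (SE 0.0659, FDR by edgeR 0.377). DESeq2 called Bax (FDR 0.00922), but not without control replicate 2 (0.138), cKO replicate 2 (0.0712) or cKO replicate 3 (0.0571), and gave no adjusted p without control replicate 3. Mdm2, the ubiquitin ligase of p53, was also lower in every cKO sample than in any control, at -0.25 (SE 0.0784, edgeR FDR 0.377), and Trp53inp1 followed at -0.14 (SE 0.0941, edgeR FDR 0.595; -0.0626 without cKO replicate 2). The mean of the list was -0.02, -0.18 and -0.02 log2 units in cKO replicates 1 to 3, so it was not raised in cKO replicate 1.

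Of the 10 genes of the integrated stress response, the pathway through which ATF4 induces Atf3, 7 were above 0 and 3 below, with a median log2 fold change of 0.069 (0.062 when cKO replicate 3 was left out, -0.042 when cKO replicate 1 was) and 0 called by edgeR. None had an unadjusted p under 0.05 (0 of 10). The lowest p belonged to Sesn2 (-0.18, SE 0.0874, edgeR FDR 0.467), Trib3 (-0.41, SE 0.203, edgeR FDR 0.470) and the serine synthesis gene Phgdh (0.16, SE 0.0817, edgeR FDR 0.480). The list mean was 0.27 in cKO replicate 1 and -0.20 in cKO replicate 2, with 4 of 10 genes highest in cKO replicate 1, among them Chac1, named after its values were seen, at 1.02 CPM there and 0.656 CPM or less elsewhere. Atf4 itself, also named after its values were seen, was at 129 CPM in that sample and between 115 and 140 CPM in the others.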
